A study of Mus musculus with 2 samples.

Results

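White adipocyte nuclei were examined in single-nucleus RNA sequencing data of the ascending aorta and arch of mice, in which the RNA of each nucleus carries its own droplet barcode. White adipocyte nuclei were chosen by their unique molecular identifiers (UMIs, the counted RNA molecules). A nucleus needed at least 300 detected genes and at least 2 UMIs summed over the general adipocyte genes Adipoq, Plin1 and Plin4. It also needed at least 5 UMIs summed over the white fat genes Cyp2e1, Retn, Trhde and Slc7a10. That sum had to exceed the sum over the brown fat genes Ucp1, Cidea, Ppara and Ppargc1b, and the sum over the smooth muscle genes Myh11, Acta2 and Lmod1. The rule chose 911 of 39516 nuclei. The Female library held 375 of 18863 nuclei (1.99%, interval 1.79% to 2.20%) and the Male library 536 of 20653 (2.60%, interval 2.38% to 2.82%).

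White adipocytes store triglyceride in a lipid droplet that fills most of the cell. Fatty acids are taken up from the blood or made from citrate by the enzymes of fatty acid synthesis, joined to glycerol, and released again by lipases when energy is needed. White adipocytes also secrete hormones, the adipokines, among them leptin and adiponectin. Brown adipocytes burn fatty acids to make heat through the mitochondrial protein Ucp1, and fat around the thoracic aorta of mice holds many of them.

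Both libraries came from Wnt1-Cre;Rosa26-mTmG mice, in which Wnt1-Cre marks the embryonic neural crest and its descendants. The mTmG reporter gives tdTomato in cells without Cre activity and GFP in cells with it. The Female library was made from tissue pooled over 6 female mice and the Male library from tissue pooled over 6 male mice. Each pool was divided into 2 technical replicates that the barcodes do not tell apart, and nuclei cannot be tied to mice. No age is stated in the labels. With 1 library per sex there is no replicate check and no test, and a difference of sex cannot be told apart from a difference between pools or libraries. All intervals are exact 95% intervals that cover counting error only.

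The libraries held 79294181 (Female) and 77989549 (Male) UMIs at 18872 and 20659 barcodes. Both libraries shared 4287 barcode sequences, among them those of 110 Female and 147 Male white adipocyte nuclei, and 4 sequences were white adipocyte nuclei in both. A doublet caller marked 15 of 375 Female white adipocyte nuclei (4.00%) and 58 of 536 Male ones (10.8%), against 5.02% and 7.29% of all nuclei. Xist and the Y-linked genes followed the labels within the white adipocyte nuclei. Xist had 4612 UMIs in Female and 8 in Male nuclei, and Uty had 0 UMIs in Female and 864 in Male nuclei.

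The comparison classes were fixed by the same sums. Non-adipocyte nuclei had fewer than 2 UMIs of the general adipocyte genes (15851 Female and 17651 Male). Brown adipocyte nuclei had at least 2 such UMIs and at least 5 of the brown fat genes, above both other sums (1189 and 862). The remaining 1448 and 1604 nuclei had at least 2 UMIs of the general adipocyte genes but met neither rule. Since these genes chose the nuclei, every difference between classes is a description.

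The chosen nuclei carried clear sums of the genes that chose them. The white fat sum had a median of 17 UMIs in Female nuclei (range 5 to 81) and 21 in Male nuclei (range 5 to 122). Just inside the threshold, 9 Female and 21 Male nuclei had a white fat sum of 5. Just outside it, 9 Female and 7 Male nuclei had a sum of 4 with all other conditions met. These border nuclei were shallow, with median totals of 2348 and 2526 UMIs just inside and 2342 and 1909 UMIs just outside. A further 302 Female and 262 Male nuclei had enough white fat UMIs but as many or more brown fat UMIs, and 15 and 28 failed on the muscle genes.

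White adipocyte nuclei were deeper than non-adipocyte nuclei and shallower than brown adipocyte nuclei. Their totals had a median of 6658 UMIs in Female nuclei (range 594 to 19768) and 6725.5 in Male nuclei (range 665 to 26582). Non-adipocyte nuclei had medians of 3215 and 2843 UMIs, and brown adipocyte nuclei 7357 and 7583. The middle 90% of white adipocyte nuclei, from the 5th to the 95th percentile, ran from 2732.8 to 14889.5 UMIs in the Female library. In the Male library it ran from 1761 to 13753.8, so the Male nuclei reached further down. The median number of genes per nucleus was 2734 and 2813.5. Mitochondrially encoded UMIs took a median share of 0.0706% in Female and 0.0744% in Male white adipocyte nuclei, against 0.190% and 0.217% in non-adipocyte nuclei. A rule on summed UMIs is met more easily by a deep nucleus, and its part in the depth of the class was not tested.

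**Figure D1:**
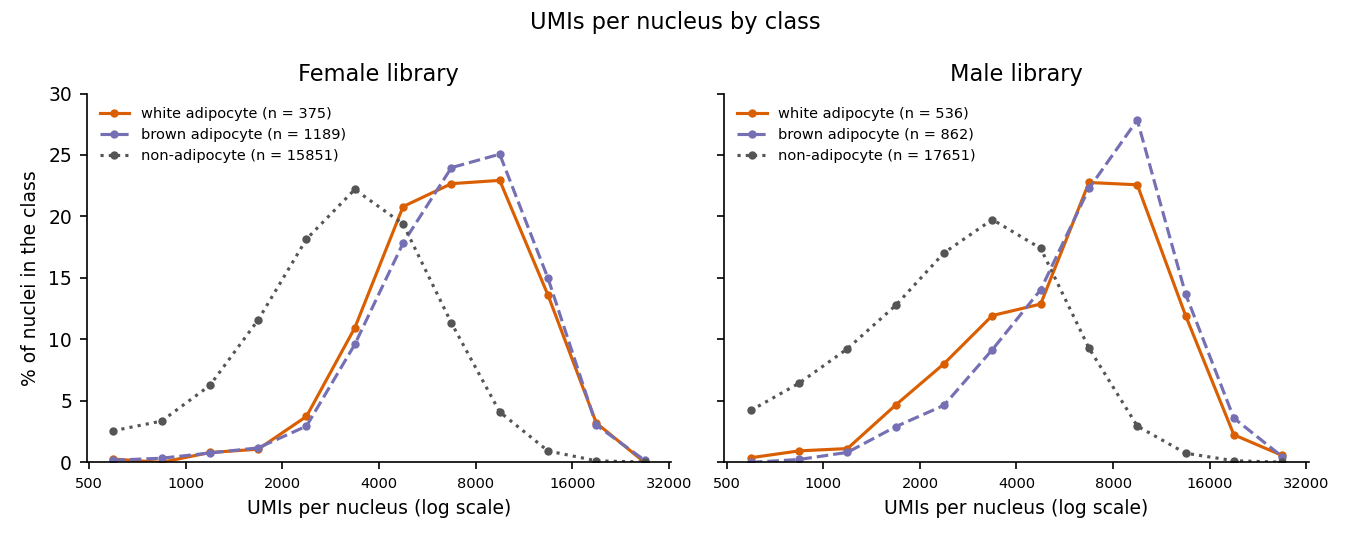
UMIs per nucleus (log scale, horizontal) against the percentage of nuclei of each class (vertical), in the Female and the Male library; points stand for UMI bins. White adipocyte nuclei (medians 6658 and 6725.5 UMIs) lie near brown adipocyte nuclei and to the right of non-adipocyte nuclei (medians 3215 and 2843 UMIs).

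The markers that the rule did not use, Cfd and Cidec, were higher in white adipocyte than in non-adipocyte nuclei. Non-adipocyte nuclei were chosen for few adipocyte UMIs, so this contrast does not tell white from brown adipocytes. Cfd encodes adipsin, a complement protease secreted by fat cells, and had 2177 UMIs per 1000000 UMIs of the class (CPM) in Female and 1423 CPM in Male white adipocyte nuclei. In non-adipocyte nuclei it had 15.9 and 12.2 CPM. With every nucleus thinned to 1000 UMIs, Cfd was found in 82.4% and 65.6% of white adipocyte nuclei, against 1.80% and 1.33% of non-adipocyte nuclei. Without thinning it was found in 98.7% and 94.2%, against 4.75% and 3.40%. Cidec, on chromosome 6 (113424634 to 113435760, GRCm38), encodes a protein that fuses lipid droplets into a large one. It had 1426 and 1752 CPM in white adipocyte nuclei, against 5.27 and 5.26 CPM in non-adipocyte nuclei, and was found in 64.7% and 73.3% of thinned nuclei, against 0.490% and 0.621%. Before thinning, Cidec was found in 97.6% and 97.2% of white adipocyte nuclei, against 1.62% and 1.60% of non-adipocyte nuclei. Cfd and Cidec were also present in brown adipocyte nuclei, at 472 and 380 CPM and at 805 and 840 CPM. After thinning, Cfd was found in 31.4% and 27.3% of brown adipocyte nuclei and Cidec in 51.1% and 52.8%.

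The genes of the rule did not all have the same level in both libraries. Cyp2e1, a cytochrome P450 enzyme, had 1389 CPM in Female and 2873 CPM in Male white adipocyte nuclei. Retn, the adipokine resistin, had 489 and 242 CPM. Trhde, a peptidase that degrades thyrotropin-releasing hormone, had 352 and 190 CPM, and Slc7a10, an amino acid transporter, had 311 and 234 CPM. The Male nuclei were thus chosen mostly through Cyp2e1, with 10923 UMIs, and the Female nuclei less so, with 3897. Ucp1 had 10 UMIs in Female and 16 in Male white adipocyte nuclei, which placed it in 1.87% and 2.43% of them, against 51.7% and 44.0% of brown adipocyte nuclei and 0.801% and 0.476% of non-adipocyte nuclei. After thinning these shares were 0.267% and 0.567%, against 19.1% and 13.4% and against 0.302% and 0.228%. The other brown fat genes were found more widely. Cidea had 370 and 299 CPM in white adipocyte nuclei, against 1559 and 1408 CPM in brown and 10.9 and 10.1 CPM in non-adipocyte nuclei. Ppara had 288 and 440 CPM, against 3262 and 2587 and against 30.5 and 21.3 CPM. Ppargc1b had 411 and 269 CPM, against 2740 and 2326 and against 33.2 and 27.0 CPM.

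Markers of other cell types were also counted. Smooth muscle markers summed to 259 CPM in Female and 285 CPM in Male white adipocyte nuclei, against 4712 and 3990 CPM in non-adipocyte nuclei. This list holds Myh11, Acta2 and Lmod1, which the rule limited, so its low level was in part set by the choice of nuclei. At least 3 such UMIs were found in 27.2% and 22.8% of white adipocyte nuclei. The same cut was reached for endothelial markers in 4.80% and 8.77%, for fibroblast markers in 6.13% and 8.40% and for macrophage markers in 0.533% and 1.49%. Schwann cell markers reached it in 14.4% and 13.1%, but 389 of 407 Female and 483 of 522 Male UMIs were of Scn7a, a sodium channel gene, and the Schwann factor Sox10 was at 0 UMIs in both. The lymphatic factor Prox1 was at 0 as well. Fewer than 3 UMIs of every list of a non-adipocyte cell type were found in 219 Female and 324 Male nuclei. The values for these alone are given with the results they touch. The brown fat genes were not among those lists, and at least 3 of their UMIs were found in 84.3% and 74.6% of all white adipocyte nuclei.

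The reporter was split among white adipocyte nuclei. In the Female library, 70 nuclei had GFP UMIs alone, 77 tdTomato alone, 49 both and 179 neither. In the Male library these were 112, 154, 75 and 195 nuclei. Non-adipocyte nuclei had 2809 with GFP alone and 4174 with tdTomato alone in the Female library, and 2791 and 4638 in the Male library. Reporter UMIs were few, with 271 of GFP and 244 of tdTomato over all 375 Female nuclei and 305 and 486 over all 536 Male nuclei. A nucleus with both reporters can be a doublet or hold free RNA, which was not tested, and no lineage was read from these counts.

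Car3, Tmem45b and Cidec had the largest ratios over non-adipocyte nuclei. Levels were compared after adding 5 CPM, for genes with at least 50 UMIs and at least 20 CPM in either class. A gene was called when it was at least 2-fold apart in the same direction in both libraries. Of 8375 genes, 1117 were higher in white adipocyte nuclei (13.3%) and 1642 were lower (19.6%). Car3, a carbonic anhydrase abundant in fat, had 4898 CPM in Female and 7384 CPM in Male white adipocyte nuclei, against 16.6 and 23.1 CPM in non-adipocyte nuclei. The genes that followed by ratio were Tmem45b, Cidec, Nrg4, Pnpla3, Slc1a3, Cfd, Tenm4, Pparg, Slc36a2, Dgat2, Acvr1c, Thrsp, Ankef1 and Ptger3. Nrg4, a growth factor secreted by fat cells, had 1655 and 1528 CPM, against 9.62 and 10.5 CPM. Pparg, the nuclear receptor that directs fat cell formation, had 3426 and 2807 CPM, against 39.5 and 31.2 CPM. Acvr1c, which encodes the receptor ALK7, had 613 and 769 CPM, against 3.70 and 3.15 CPM. In both libraries the white adipocyte level lay far above that of non-adipocyte nuclei for all 15 genes. The smallest log2 ratio was 5.99, for Ptger3 in Male nuclei. These ratios do not set white apart from brown adipocyte nuclei. Brown adipocyte nuclei had more Pparg, with 4381 and 4175 CPM, and more Nrg4, with 1775 and 1605 CPM. They had less Car3, with 3058 and 4149 CPM.

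**Figure D2:**
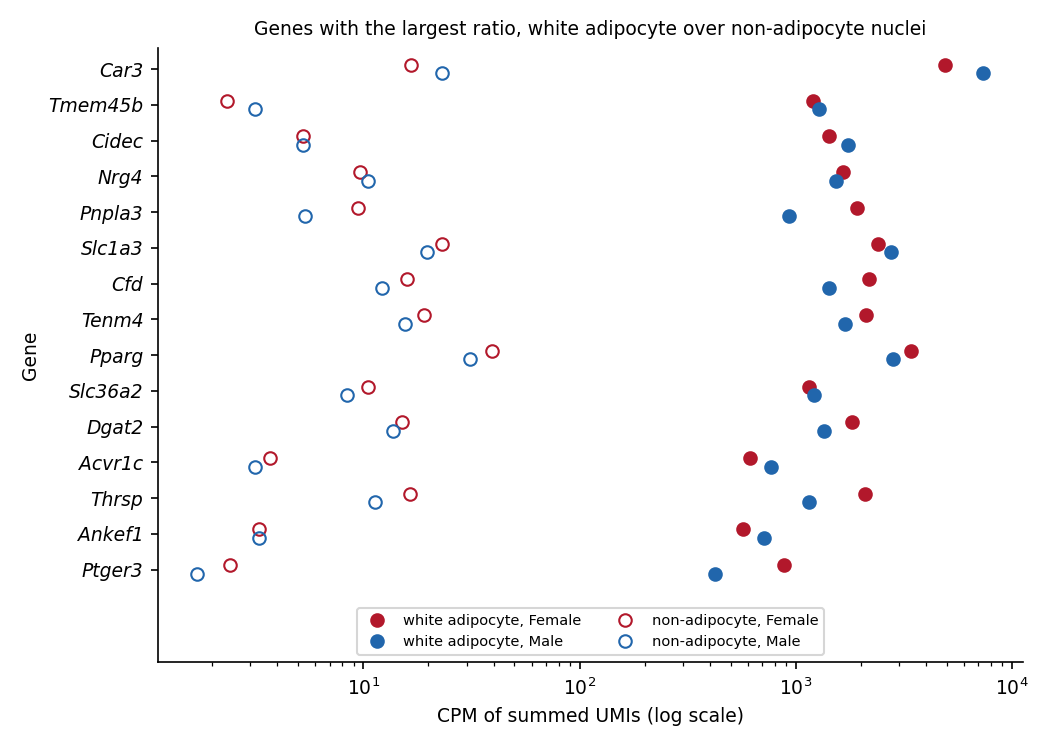
Level in CPM of summed UMIs (log scale, horizontal) of the 15 genes with the largest ratio of white adipocyte to non-adipocyte nuclei (vertical); filled points are white adipocyte and open points non-adipocyte nuclei, red Female and blue Male. The white adipocyte points of each gene lie apart from its non-adipocyte points in both libraries, from Car3 (4898 and 7384 CPM against 16.6 and 23.1) to Ptger3 (885 and 422 CPM against 2.42 and 1.70).

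The lowest ratios belonged to Mtus2, Thsd4, Ctnna3, Kcnip4, Itga8, Synpo2, Bmpr1b and Myocd. Myocd, the coactivator that drives smooth muscle genes, had 10.7 and 22.1 CPM in white adipocyte nuclei, against 535 and 549 CPM in non-adipocyte nuclei. Itga8, an integrin subunit of smooth muscle, had 30.3 and 68.1 CPM, against 1964 and 1523 CPM.

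The steps of lipid handling were then followed list by list, each against the background of 13.3% of genes called higher. For fatty acid synthesis, 14 of 17 genes that passed the filter were higher. Acaca, the enzyme that commits acetyl-CoA to fatty acids, had 12136 and 6667 CPM in white adipocyte nuclei, against 173 and 141 CPM. Fasn, which builds the chain, had 2604 and 1449 CPM, against 37.4 and 27.3 CPM. For triglyceride synthesis, 11 of 13 were higher, among them Dgat2, which adds the last fatty acid, with 1830 and 1346 CPM against 15.04 and 13.7 CPM. Gk, which phosphorylates glycerol, was not among them, with 22.1 and 48.7 CPM in white adipocyte nuclei, against 50.04 and 46.4 CPM.

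In the lipolysis list, which holds lipases and regulators such as G0s2 and Pde3b, all 11 genes that passed were higher. Lipe, hormone-sensitive lipase, had 1819 and 1831 CPM in white adipocyte nuclei, against 30.5 and 30.0 CPM. Pnpla2, the lipase that starts the breakdown of triglyceride, had 326 and 447 CPM, against 21.3 and 27.0 CPM. Of the droplet genes outside the rule, 5 of 9 were higher. Among receptors that raise or restrain lipolysis, 6 of 9 were higher and 1 was lower. Adrb3, the adrenergic receptor of fat cells, had 636 and 515 CPM, against 3.51 and 3.93 CPM. The lower gene was Npy1r, a receptor of neuropeptide Y, with 1.069 and 2.104 CPM against 31.2 and 28.4 CPM.

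Most uptake and insulin genes and all adipokine genes that passed were higher. Of the uptake genes, 7 of 10 were higher, among them Lpl, the lipase that frees fatty acids from lipoproteins, with 1474 and 1629 CPM against 33.6 and 34.0 CPM. All 8 adipokine genes that passed and were outside the rule were higher. Lep, leptin, had 158 and 175 CPM in white adipocyte nuclei, against 0.699 and 0.834 CPM. Agt, the precursor of angiotensin, had 0 UMIs in both libraries, which allows up to 1.07 CPM in the Female nuclei. Of insulin and glucose genes 7 of 12 were higher, and Slc2a4, the insulin-responsive glucose transporter, had 324 and 184 CPM, against 7.21 and 6.64 CPM. Of 11 matrix genes 2 were higher and 6 lower, against 13.3% and 19.6% of all genes.

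Against brown adipocyte nuclei far fewer genes were apart. Of 7354 genes, 208 were higher in white adipocyte nuclei in both libraries (2.83%) and 255 were lower (3.47%). With a pseudocount of 20 CPM these counts were 111 and 144, and after thinning to 1000 UMIs 115 were higher. The genes furthest above were Prr16, Chst1, Cachd1, Ednra, Trf, Slc25a10, Gpt2 and Gsta3. Trf, transferrin, had 89.8 and 63.7 CPM in white adipocyte nuclei, against 4.91 and 7.35 CPM in brown adipocyte nuclei. Slc25a10, the mitochondrial dicarboxylate carrier, had 201 and 102 CPM, against 22.6 and 14.3 CPM. The genes furthest below were Pitpnc1, Slc27a2, Kng2, Esrrg, Nol4l, Me3, Fabp3 and Coq8a. Esrrg, a nuclear receptor of oxidative tissues, had 151 and 95.8 CPM, against 1863 and 1544 CPM. Of the thermogenic list outside the rule, 6 of 10 genes were lower in white adipocyte nuclei and 0 higher. None of the 11 lipolysis genes was 2-fold apart in both libraries, and Lipe had 1690 and 1690 CPM in brown adipocyte nuclei.

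The Female and Male white adipocyte nuclei were compared next, which the rule did not use apart from the genes named in it. Of 7555 genes, 148 were at least 2-fold higher in Female nuclei (1.96%) and 135 at least 2-fold lower (1.79%). With a pseudocount of 20 CPM these counts were 84 and 53. The count of lower genes was 87 over genes with at least 100 UMIs and 40 CPM, and 78 after thinning to 1000 UMIs. The log2 ratio of Female to Male had a median of -0.08 over all genes and lay above 0 for 2942 of them (38.9%). Of these 148 and 135 genes, 44 were 2-fold apart in the same direction in brown adipocyte nuclei, Xist and Y-linked genes among them. Only 1, Rbfox1, was so in the opposite direction. The rest were not 2-fold apart in brown adipocyte nuclei or did not pass the filter there.

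Fatty acid synthesis genes were higher in Female nuclei as a list. All 17 genes that passed lay above 0, 10 of them at least 2-fold, with a median log2 ratio of 1.13. The list summed to 45897 CPM in Female and 20852 CPM in Male white adipocyte nuclei. Elovl6, on chromosome 3 (129532355 to 129638495, GRCm38), lengthens palmitate. It had 5314 CPM in Female and 805 CPM in Male nuclei, a log2 ratio of 2.71, and the counting interval of the plain ratio ran from 2.67 to 2.78. Me1, the malic enzyme that supplies NADPH, had 3910 and 750.0 CPM (2.37). Acss2, which makes acetyl-CoA from acetate, had 3013 and 872 CPM (1.78).

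The early steps of the route showed the same order. Slc25a1, the carrier that exports citrate from mitochondria, had 726 and 217 CPM (1.72), and Acly, which splits that citrate, had 3395 and 1136 CPM (1.57). The counts are of whole genes and do not separate exonic from intronic reads. Acaca followed with 12136 and 6667 CPM (0.86) and Fasn with 2604 and 1449 CPM (0.84). Scd1, the desaturase, was the closest to even, with 2785 and 2266 CPM (0.30). The list itself holds transcription factor genes of the route, which are counted in its totals above. Mlxipl (the glucose sensor ChREBP) had 3118 and 1422 CPM (1.13) and Srebf1 had 800.1 and 478 CPM (0.74).

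The list was higher in Female brown adipocyte nuclei too, with a median of 0.71 over 15 genes, 14 of them above 0. In non-adipocyte nuclei the median was 0.23 over 14 genes, where the list summed to 763 CPM in the Female and 633 CPM in the Male library. The difference between the classes was not tested. In white adipocyte nuclei with fewer than 3 UMIs of every non-adipocyte cell type list the median was 1.06. Without the nuclei called doublets it was 1.07.

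**Figure D3:**
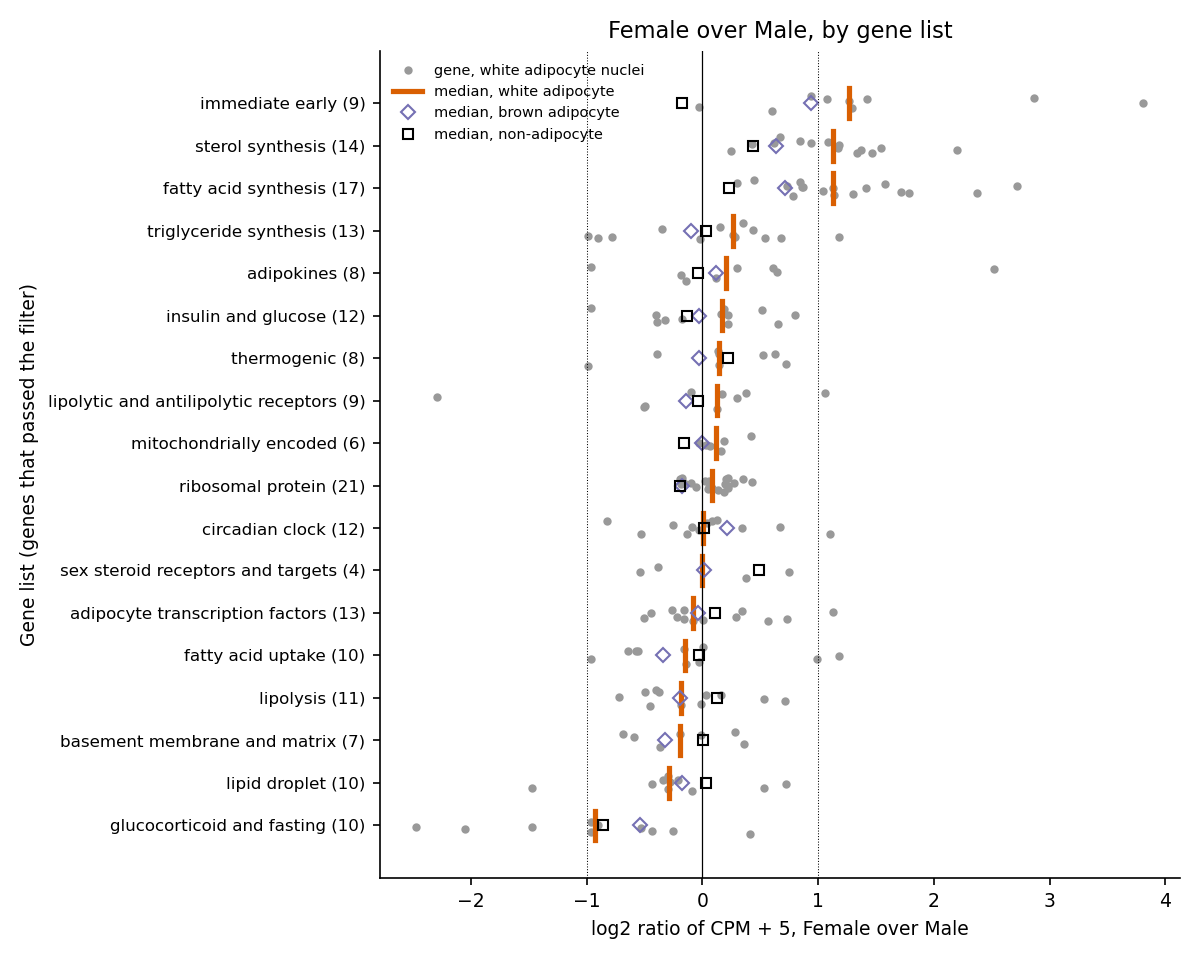
Log2 ratio of Female to Male CPM + 5 (horizontal) for each gene list (vertical); grey points are genes in white adipocyte nuclei, orange bars their median, purple diamonds the median in brown adipocyte nuclei and black squares that in non-adipocyte nuclei. Sterol and fatty acid synthesis (both 1.13) and immediate early genes (1.27) lie highest, and glucocorticoid and fasting genes (-0.93) lie lowest.

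Because genes of this list and of sterol synthesis were higher together, their promoters were read from RefSeq on GRCm38.p6. Each window ran from 250 bases before to 50 bases after an annotated start. A gene can have several starts, with 32851 windows for 27025 genes, and counts as holding a motif when any of its windows does. The letters TCACNCCAC, a sterol regulatory element, and CACGTG, an E-box of the kind that ChREBP and other factors bind, were searched on both strands. The first was found in 1.44% of all 27025 genes with a promoter, in 1 of 15 fatty acid synthesis genes matched (Mlxipl) and in 1 of 11 sterol synthesis genes matched (Hmgcs1). The Mlxipl match lies before an alternative start inside the gene. It was also found in 1 of 10 triglyceride synthesis genes. The E-box was found in 8.09% of all genes. It was found in 3 of 15 fatty acid synthesis genes (Mlxipl, Elovl5 and Slc25a1) and in 2 of 11 sterol synthesis genes (Insig1 and Dhcr7). It was found as well in 4 of 8 lipolysis genes and 3 of 10 glucocorticoid and fasting genes, lists whose medians were not above 0 in Female nuclei, in 2 of 10 triglyceride synthesis genes and in 1 of 13 droplet genes. 4 of these stretches, all before a start, are shown as examples 5′ to 3′ along the gene's strand, with the searched letters in capitals. They belong to genes of both routes that were higher in Female nuclei. The matches of Elovl5, Insig1 and Dhcr7, also higher in Female nuclei, are not shown. A match describes letters only.
Mlxipl, sterol element before an alternative start, chr5:135106735-135106784, plus strand: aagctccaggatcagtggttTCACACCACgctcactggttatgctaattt
Mlxipl, E-box, chr5:135089772-135089818, plus strand: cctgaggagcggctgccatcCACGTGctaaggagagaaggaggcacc
Slc25a1, E-box, chr16:17928432-17928469, minus strand: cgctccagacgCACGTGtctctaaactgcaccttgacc
Hmgcs1, sterol element, chr13:119690194-119690243, plus strand: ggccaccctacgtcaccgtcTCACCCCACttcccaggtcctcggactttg

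Sterol synthesis genes were also higher in Female nuclei. All 14 that passed lay above 0, 8 of them at least 2-fold higher, with a median log2 ratio of 1.13. The largest ratio belonged to Mvd, an enzyme of the mevalonate route, with 53.1 CPM in Female and 7.63 CPM in Male nuclei (2.20), although this rests on 149 and 29 UMIs and Mvd overlaps the gene model Gm20388. Sqle, squalene epoxidase, had 34.2 and 8.42 CPM (1.55). Hmgcs1, which carries the sterol element shown above, had 87.0 and 63.1 CPM (0.43). Brown adipocyte nuclei gave a median of 0.63 over 10 genes, and non-adipocyte nuclei 0.43 over the 5 that passed there.

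Other named genes were also higher in Female nuclei. Angptl8, a secreted regulator of lipoprotein lipase, had 253 CPM in Female and 39.98 CPM in Male nuclei (2.52). It lies on chromosome 9 (21835510 to 21837347, GRCm38) within Dock6, which had 49.5 and 46.0 CPM. Ppp1r3b, a subunit that directs phosphatase to glycogen, had 770 and 149 CPM (2.33), and Pgm3, an enzyme of amino sugar synthesis that overlaps Dop1a, had 445 and 64.7 CPM (2.69). Mapk8ip1, Hephl1 and Ntng1 had log2 ratios of 2.51, 2.36 and 2.35.

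Immediate early genes, which are transcribed within minutes of a stimulus, were higher in Female nuclei. Of 9 that passed, 8 lay above 0 and 6 were at least 2-fold higher, with a median of 1.27. The median was 2.08 over genes with at least 100 UMIs and 40 CPM, and 3.95 after thinning to 1000 UMIs. Fewer genes of the list pass the filter in these settings, and after thinning the value is that of Egr1 alone. Neither value can be read as a larger difference of the list. Egr1, on chromosome 18, had 143 CPM in Female and 5.52 CPM in Male nuclei (3.81). It was found in 78 of 375 Female (20.8%) and 11 of 536 Male nuclei (2.05%), against 4.18% and 3.77% of non-adipocyte nuclei. With nuclei thinned to 1000 UMIs the shares were 9.36% and 0.378%, against 1.86% and 1.66%. Fos had 41.0 and 1.32 CPM (2.86), from 115 and 5 UMIs. Jun had 57.0 and 20.3 CPM (1.30), and Nr4a2 was even, with 24.9 and 25.5 CPM (-0.03). The list gave 0.94 over 6 genes in brown adipocyte nuclei and -0.17 over 7 genes in non-adipocyte nuclei.

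Genes raised by glucocorticoids or fasting were lower in Female nuclei. Of 10 that passed, 9 lay below 0 and 3 were at least 2-fold lower, with a median of -0.93. Fkbp5, a cochaperone of the glucocorticoid receptor, had 103 CPM in Female and 595 CPM in Male nuclei (-2.47). Zbtb16, a transcription factor induced by glucocorticoids, had 336 and 1402 CPM (-2.05), and Mt2, a metallothionein, had 16.4 and 54.2 CPM (-1.47). Pdk4, the kinase that restrains glucose oxidation, lay above 0, with 114 and 84.7 CPM (0.41). The list was also lower in the Female library outside adipocytes, with a median of -0.85 over 8 genes in non-adipocyte nuclei, all 8 below 0. There Fkbp5 had 85.5 and 305 CPM and Zbtb16 387 and 1070.1 CPM.

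Slc2a3, Npr3 and Nnat were among the other genes lower in Female nuclei. Slc2a3, a glucose transporter, had 7.48 CPM in Female and 105 CPM in Male nuclei (-3.14). Npr3, which clears natriuretic peptides, had 30.7 and 170 CPM (-2.29). Nnat, an imprinted gene of the endoplasmic reticulum that lies within Blcap, had 35.3 and 236 CPM (-2.58). Its UMIs sat in few nuclei, 14 Female and 77 Male, with up to 40 and 74 UMIs in a nucleus. C4b, whose near-identical copy C4a makes its counts uncertain, had 51.3 and 296 CPM (-2.42), and Map7d2 had a log2 ratio of -1.98.

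The remaining lists had medians between -0.29 and 0.26. Triglyceride synthesis had a median of 0.26 over 13 genes, with Gpam, its first enzyme, at 509 CPM in Female and 222 CPM in Male nuclei (1.18). Lipolysis had -0.19 over 11 genes, none of them 2-fold apart, and Lipe had 1819 and 1831 CPM. Droplet genes outside the rule had -0.29 over 10, with Plin5 at 17.5 and 57.1 CPM (-1.47) and Plin2 at 626 and 378 CPM (0.72). Uptake genes had -0.15 over 10, adipokines outside the rule 0.21 over 8 and insulin and glucose genes 0.17 over 12. Lep was near even (-0.14), while Cfd was at 0.61. Receptors of lipolysis had 0.12 over 9, with Ptger3, a prostaglandin receptor, at 885 and 422 CPM (1.06) and Npr3 as given above. Clock genes had 0.01 over 12, fat cell transcription factors -0.08 over 13 and sex steroid receptors and targets -0.0048 over 4, with Esr1, the estrogen receptor, at 1056 and 625 CPM (0.75). With scaling by the median ratio, the medians of the transcription factors (0.0060) and the sex steroid list (0.078) lay above 0.

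Fatty acid synthesis also varied widely among nuclei of the same library. Nuclei were thinned to 1000 UMIs, which kept 374 Female and 529 Male ones. A Female nucleus then held a median of 49 fatty acid synthesis UMIs, with a range of 2 to 95. A Male nucleus held a median of 18, with a range of 1 to 74. The 5th and 95th percentiles were 11 and 80.35 in Female and 5 and 48 in Male nuclei, so the libraries overlapped. Of the 374 Female nuclei, 66 held fewer than 20 such UMIs, as did 279 of the 529 Male nuclei. The spread beyond counting noise, as a coefficient of variation, was 46.3% in Female and 60.8% in Male nuclei. For lipolysis it was 28.6% and 21.8%, for triglyceride synthesis 29.8% and 46.8%, and for insulin and glucose genes 18.9% and 22.6%. Lists with few UMIs per nucleus ranged from 23.5% and 19.8% for clock genes to 360% and 208% for mitochondrially encoded genes. Between them lay matrix genes with 29.5% and 33.2%, sterol synthesis with 46.2% and 60.9% and thermogenic genes with 46.0% and 60.1%. Glucocorticoid and fasting genes had 62.9% and 42.8%, and immediate early genes 168% and 59.8%. Nuclei cannot be tied to the pooled mice, so spread among nuclei and spread among mice cannot be told apart.

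**Figure D4:**
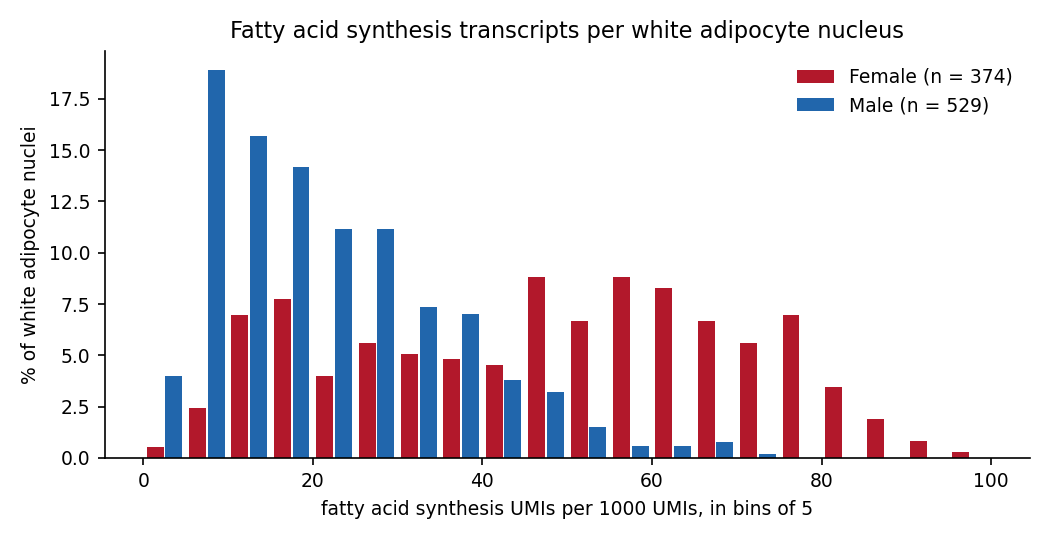
Fatty acid synthesis UMIs per white adipocyte nucleus thinned to 1000 UMIs, in bins of 5 (horizontal), against the percentage of nuclei in each bin (vertical); red bars are Female (374 nuclei) and blue bars Male (529 nuclei). Female nuclei spread from 2 to 95 around a median of 49, and Male nuclei gather at low values around a median of 18.

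By gene, the variance of thinned UMIs over their mean was largest in both libraries for Malat1, Elovl6, Ghr, Cmss1, Car3, Acaca, Acly, Scd1, Fam13a and Cfd. It was 5.74 for Elovl6 in Female and 4.39 in Male nuclei, against a median of 1.16 and 1.17 over 741 genes. At equal relative spread this measure is larger for a gene with a higher mean, so it favours abundant genes. The spread beyond counting noise, as a coefficient of variation, was 93.2% and 213% for Elovl6. For Acaca, with a mean of 11.6 and 6.14 UMIs, it was 41.7% and 72.5%. Elovl6 was at 0 UMIs in 17.9% of Female and 68.2% of Male thinned nuclei, and the 10% of nuclei richest in it held 32.6% and 61.8% of its UMIs. Acaca was at 0 in 1.07% and 8.32% of nuclei. Malat1 is a nuclear RNA that is not translated, and Cmss1 lies over Filip1l.

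Within a library, fatty acid synthesis genes varied together across nuclei. In Female nuclei Acly correlated with the rest of its list at r = 0.60, Acaca at 0.58 and Me1 at 0.56. In Male nuclei these were 0.57, 0.57 and 0.36. Car3 ran against the list in Female nuclei (r = -0.56) and less so in Male nuclei (r = -0.14), as did Ghr, the growth hormone receptor (-0.40 and -0.26). These values describe 374 and 529 nuclei that share a library and a fixed total of 1000 UMIs, so a large list lowers the others, and no p is given.

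The lipid lists were also compared across depth. Within each library, nuclei were divided by total UMIs into 4 depth groups with like numbers of nuclei. The groups had medians of 3467, 5630, 8307 and 12166 UMIs in the Female and 2496.5, 5338, 7965.5 and 11884.5 in the Male library. A group thus spans a range of totals, and the same group is not of equal depth in the 2 libraries. Fatty acid synthesis summed to 49776, 47262, 48482 and 42598 CPM across the Female groups and to 21178, 20025, 20679 and 21250 CPM across the Male groups. Each Female depth group thus lay above every Male one. Lipid droplet genes outside the rule were highest in the shallowest group, with 4033 CPM in Female and 4233 CPM in Male nuclei, against 3206 and 3326 CPM in the deepest. This was not particular to droplet genes. Ribosomal protein genes had 1352 and 1380 CPM in the shallowest and 782 and 759 CPM in the deepest group. Insulin and glucose genes did not fall, with 9786 and 9050 against 10267 and 9922 CPM. The rule asks the same minimum of adipocyte UMIs at every depth, and its part was not tested. The sum of lipolysis genes was lower in Female than in Male nuclei in each depth group, with 7399 against 8910 CPM in the shallowest and 6575 against 7877 CPM in the deepest. Over all depths, Pde3b (1487 against 1961 CPM) and Prkar2b (902 against 1487 CPM) made up much of this gap. Lipe was near even, with 1819 against 1831 CPM. Of the 11 genes of the list, 7 lay below 0 and 4 above, so the sum does not describe each gene.

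**Figure D5:**
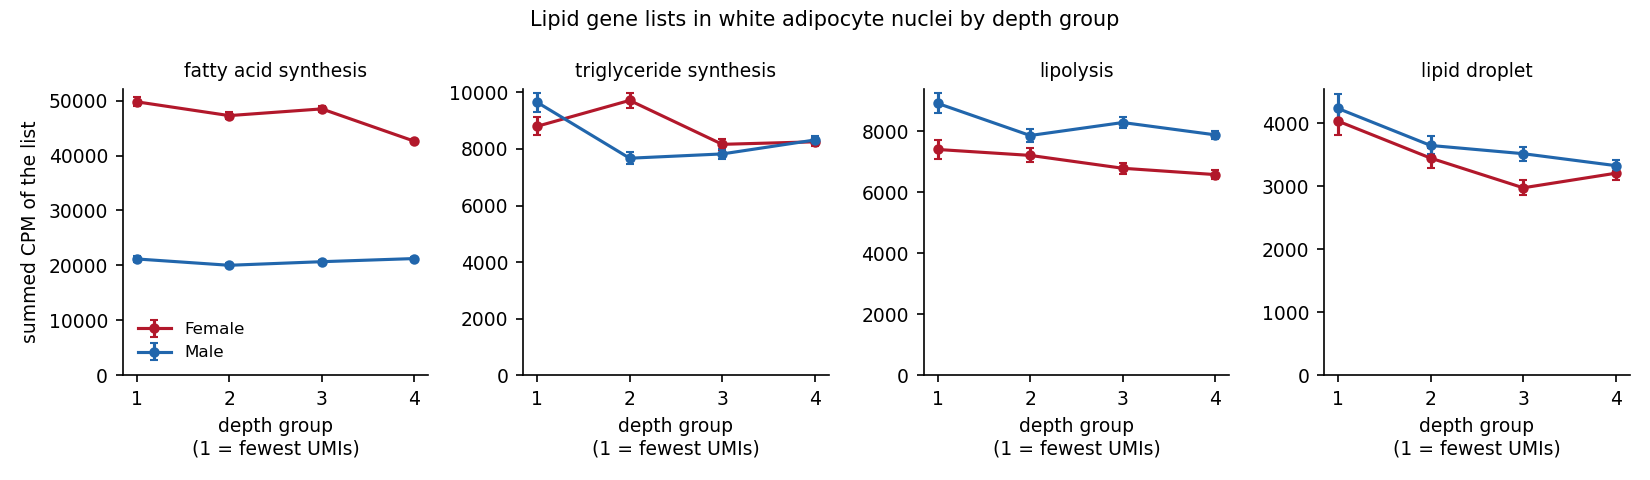
Summed CPM (vertical) of 4 lipid gene lists in white adipocyte nuclei by depth group of total UMIs (horizontal, 1 the shallowest), with 95% counting intervals; red is Female and blue is Male. Fatty acid synthesis runs from 42598 to 49776 CPM in Female and from 20025 to 21250 CPM in Male nuclei, while the other lists lie closer together.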

How the data were processed

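Nuclei of 1 Female and 1 Male library were profiled with a droplet method. The files as deposited hold unnormalized counts, the UMIs of every gene at every barcode. The matrix headers name Cell Ranger 7.0.0, per the file headers. Seurat 4.4.0, Cell Ranger, STAR and the build GRCm38 stand in the submitters' processing notes. Which annotation, strand setting and intron setting were used is not given in the sources used here, so genes that overlap another model are uncertain. Of 54754 features, 54723 were placed by Ensembl identifier on a GRCm38 annotation.

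Barcodes with at least 300 genes were kept and classified by summed UMIs. Counts were summed per class and library, scaled to CPM and compared as log2 ratios after adding 5 CPM, for genes with at least 50 UMIs over both sums and 20 CPM in either, called at 2-fold by size alone. With 1 library per sex no test was possible. Intervals are exact 95% (Clopper-Pearson, Poisson, conditional ratio) and cover counting error only; a count of 0 allows up to 3 UMIs. Intervals of ratios are of the plain CPM ratio. Doublets were called with scrublet in scanpy 1.11.5 at a rate of 0.08 and kept. For spread, nuclei were thinned to 1000 UMIs (seed 1).

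The 14 rule genes and gene models without a proper symbol were not named. The 15 largest ratios over non-adipocyte nuclei were named, taking the smaller of the libraries' ratios, and 8 each way against brown ones. For Female against Male, 12 each way were named, leaving out genes whose level in the higher library was under that of its non-adipocyte nuclei. Named spread genes were the 10 with the largest variance over mean in both libraries, among genes with a mean of at least 0.2 UMIs. A few genes met by this rule are left out of the text. List members with the most UMIs or the largest change, Cfd and Cidec were also named. The lowest genes over non-adipocyte nuclei, Dock6, Rbfox1 and Npy1r were named after their values were seen. Members and the 18 pathway and 13 marker lists were chosen with earlier results of these data known. The script was tested on simulated data. Versions were matplotlib 3.10.9, pandas 2.3.3, scipy 1.17.1, numpy 2.4.6 and Python 3.11.15.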

Additional observations from a re-analysis of the deposited data

Results flagged for a closer look

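Rbfox1, an RNA-binding splicing regulator, was at least 2-fold apart in opposite directions in the adipocyte classes. In white adipocyte nuclei it had 63.1 CPM in Female and 12.9 CPM in Male nuclei, a log2 ratio of 1.93, from 177 and 49 UMIs. In brown adipocyte nuclei it had 247 and 499 CPM (-1.002). In non-adipocyte nuclei it had 303 and 508 CPM (-0.73), so its level in white adipocyte nuclei was below that of both these classes in each library. With 1 library per sex, the difference between the classes was not tested.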

How the results depend on the processing

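No paired analysis was possible because each sex is 1 library and the technical splits cannot be told apart. The counting thresholds, doublets, shared barcodes, markers of other cell types, pseudocount, gene filter, scaling, thinning and comparison class were varied. Of 612 alternative values of 49 genes called 2-fold apart between Female and Male nuclei, 612 kept their direction and 595 stayed 2-fold apart. These 49 were the named genes and the list genes, not all called genes. A value was counted only where the gene passed the filter. The named genes were picked for large ratios, so these counts do not describe the other called genes. Keeping only nuclei with fewer than 3 UMIs of every non-adipocyte cell type list left 219 Female and 324 Male nuclei. Their median depths were 5697 and 5301 UMIs, and their fatty acid synthesis median was 1.06. Removing barcodes found in both libraries gave median depths of 7609 and 7431 UMIs, and removing doublets a fatty acid synthesis median of 1.07. A pseudocount of 20 CPM left 111 genes higher and 144 lower than in brown adipocyte nuclei, 84 higher and 53 lower in Female than in Male nuclei, and a fatty acid synthesis median of 1.03. A filter of 100 UMIs and 40 CPM left 87 genes lower in Female nuclei and an immediate early median of 2.08, since fewer genes are tested. Scaling by the median ratio gave a fatty acid synthesis median of 1.21. Thinning to 1000 UMIs left 115 genes higher than in brown adipocyte nuclei and 78 lower in Female nuclei. The medians were then 1.06 for fatty acid synthesis and 3.95 for immediate early genes, the latter from Egr1 alone.

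Some list medians near 0 changed sign, and the cause was not tested. A white fat sum of at least 8 gave 0.012 for sex steroid receptors and targets and -0.12 for mitochondrially encoded genes. A general adipocyte sum of at least 4 gave -0.024 for clock genes, 0.0023 for sex steroid and -0.088 for mitochondrially encoded genes. Removing doublets gave -0.056 for receptors of lipolysis and -0.053 for clock genes. Removing shared barcodes gave 0.018 for sex steroid and -0.28 for mitochondrially encoded genes. Removing nuclei with other markers gave 0.19 for transcription factors, -0.032 for clock and 0.022 for sex steroid genes. No CPM minimum gave -0.096 for receptors, and the stricter filter -0.032 for clock genes. Scaling by the median ratio gave 0.0060 for transcription factors and 0.078 for sex steroid genes. Thinning gave -0.17 for clock and -0.099 for ribosomal protein genes.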
